A study of Mus musculus with 6 samples.

Results

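RNA polymerase II (Pol II) does not run freely along a gene: sets of proteins hold it shortly after initiation, release it, speed it through chromatin and stop it after the end. The genes of 34 such factors were listed by name, from the pausing factors NELF and DSIF through the kinase P-TEFb and its 7SK inhibitors to the termination factors. Of these, 32 had rows in all 3 deposited region tables, among 12718 genes. Ell2 and Eaf1 were not analysed here. RPB1, the largest Pol II subunit, had been profiled by ChIP-seq with an antibody labelled RPB1(NTD), for the N-terminal domain. ChIP-seq is the sequencing of immunoprecipitated chromatin. The chromatin came from adrenal glands of female mice, the strain being labelled 129 sv X CD1 and the age 10 to 14 months for both groups. Of the 6 libraries, 3 were from WT mice and 3 from Armc5(-/-) mice, called knockout here. Each library carried its own mouse number and was taken as 1 animal. No treatment, other allele or transgene is named for either group. Armc5, which encodes an armadillo-repeat protein known to serve a cullin ubiquitin ligase that acts on RPB1, was itself not analysed here, so the knockout was not checked at its own locus. The question addressed is whether the genes for the machinery that paces Pol II carried more or less RPB1 in the knockout gland, and in which region.

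As background, NELF and DSIF hold Pol II a short way downstream of the start. P-TEFb, the kinase CDK9 with cyclin T, phosphorylates DSIF, NELF and the RPB1 tail, and this releases the polymerase. A large share of P-TEFb is kept inactive by HEXIM proteins bound to the noncoding 7SK RNA. The PAF complex, SPT6, the super elongation complex, TFIIS and the histone chaperone FACT then help the polymerase through nucleosomes, and Integrator, PCF11 and XRN2 end transcription. RPB1 counted on these genes measures polymerase on their DNA, not the amount of their proteins.

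Reads had been counted per gene in 3 regions: around the start of transcription (TSS), over the gene body, and around the end of transcription (TES). The libraries held from 14511177 to 28190157 counts over the 3 regions, with 12419812 to 22523647 in the gene body and far fewer at the TSS (1133364 to 3406223) and TES (958001 to 2294430). The smallest 3 libraries were knockout replicate 1 and WT replicates 1 and 2, and in them the single gene Gm10800 took 10.9 to 25.1% of TSS counts against 2.67 to 4.66% in the other 3. Of the smaller libraries, 2 of 3 were thus WT. Levels are CPM: each count was divided by its library's total in that region table, adjusted by a TMM factor, and scaled up by a constant. All 7 adrenal cortex markers listed had rows and counts, with a summed gene body level of 1253 to 2550 CPM in WT and 1639 to 2037 CPM in knockout. All 5 chromaffin markers did too, at 167 to 365 CPM and 233 to 694 CPM. The glands thus held cortex and medulla, and in whole tissue fewer cells of a type cannot be told apart from less RPB1 per cell.

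In WT glands most of the factor genes lay above the median gene in RPB1 per length. The median gene body level per kb of annotated span was 2.34 CPM per kb over the 32 members against 1.73 CPM per kb over 12381 genes, and 24 of the 32 lay above that overall median. Mepce, which caps the 7SK RNA, was highest at 18.0 ± 4.79 CPM per kb (SD, n = 3). Hexim1, the main protein inhibitor of P-TEFb, followed at 11.6 ± 1.25 CPM per kb. Pcf11, Paf1 and Cdk9 came next at 6.17 ± 2.06, 6.05 ± 1.41 and 6.02 ± 1.65 CPM per kb, within their spread of each other. Leo1, a PAF complex subunit, was lowest at 1.02 ± 0.176 CPM per kb. On this measure the short genes Mepce and Hexim1 stood well above the rest of the machinery. The measure divides by annotated span, while the extent counted as gene body is not given, which matters most for short genes. Zcwpw1 lies 455 bp from Mepce, so the 2 may share reads.

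RPB1 near the start, relative to the gene body level per kb, also varied widely among the members. TSS counts divided by gene body counts per kb had a WT median of 3.87 over the members and 2.74 over 12346 genes, and 22 of 32 members lay above the latter. The highest WT medians belonged to Cdk12, a kinase of the RPB1 tail, at 14.2 (10.2 to 19.2), the Integrator subunit gene Ints6 at 11.8 (10.4 to 25.7), the PAF-associated Rtf1 at 11.5 (8.54 to 17.7) and Cdk13 at 10.2; the range over the WT libraries is in brackets. The ranges of these genes overlapped, and Ints6 exceeded Cdk12 in WT replicates 2 and 3, so these 4 have no firm order. At the other end, Mepce stood at 0.233 and Ccnt1, the cyclin T1 gene of P-TEFb, at 0.348. Within P-TEFb the cyclin genes lay far apart, since Ccnt2 was at 4.20. How wide the windows were is not given in the sources used here, and the values rank genes and are not a pausing index in absolute terms. They also rise with gene span, so they are not the share of a gene's counts at the start. In WT replicate 1, Cdk12 had 648 TSS against 3599 gene body counts, and Supt4a 182 against 223.

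**Figure D1:**
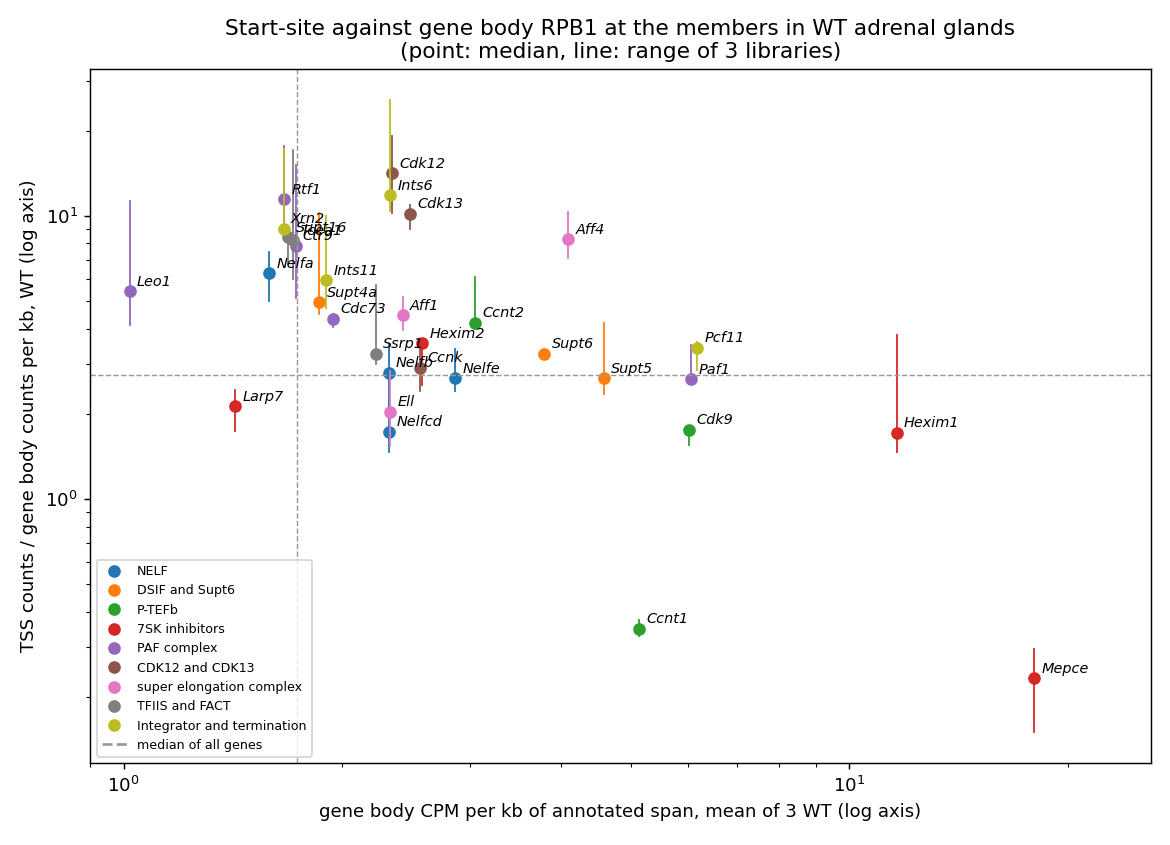
RPB1 at the 32 member genes in WT adrenal glands, as gene body CPM per kb of annotated span (x, log axis, mean of 3 WT libraries) against TSS counts over gene body counts per kb (y, log axis, median and range of the 3 WT libraries), coloured by role. Dashed lines mark the medians of all genes, 1.73 and 2.74. Mepce and Hexim1 lie far to the right, and Cdk12, Ints6, Rtf1 and Cdk13 at the top.

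Between genotypes, 1 member passed the test, Hexim1, which was higher in knockout at the TES. Members with an adjusted p under 0.05 numbered 0 (TSS), 0 (gene body) and 1 (TES) of 32. Over all genes tested the same rule called 0.339% (TSS), 0.252% (gene body) and 0.915% (TES), so few genes were called in any region. Most of those calls were higher in knockout, as Hexim1 was. They numbered 43 higher and 0 lower (TSS), 31 and 1 (gene body), and 104 and 12 (TES). With unadjusted p under 0.05 edgeR gave 0 members at the TSS (5.57% of all genes). In the gene body it gave 2 members or 6.25%, Hexim1 and Ints6, against 5.05% of all genes. The TES also had 2 members or 6.25%, Hexim1 and Ctr9, against 6.85% of all genes. DESeq2 called 0 (TSS), 1 (gene body) and 1 (TES) members, Hexim1 in each case. Of all genes tested it called 95 (TSS), 179 (gene body) and 108 (TES), where edgeR called 43, 32 and 116. The median log2 fold change of the members was 0.046 (TSS), 0.017 (gene body) and -0.011 (TES), beside -0.0093 (TSS), -0.019 (gene body) and -0.016 (TES) over all tested genes. At the TSS 30 of 32 members had a log2 fold change under 0.3 in size, with 18 above 0 and 14 below. The gene body had 19 above 0 and 13 below, and the TES 15 above and 17 below. The members' standard errors (SE) ran from 0.14 to 0.39 (TSS), 0.12 to 0.25 (gene body) and 0.22 to 0.55 (TES). Differences of that size could not be detected with these libraries, and larger ones could also go uncalled. In the gene body, edgeR gave an adjusted p of 0.734 for Ints6 at 0.54 ± 0.19 (SE) and 0.0825 for Hexim1 at 0.86 ± 0.15 (SE). The TSS median depended on scaling: with the factors of the 3 tables joined it was 0.30 for the members and 0.24 for all genes, and the members lay 0.055 above all genes under either scaling.

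**Figure D2:**
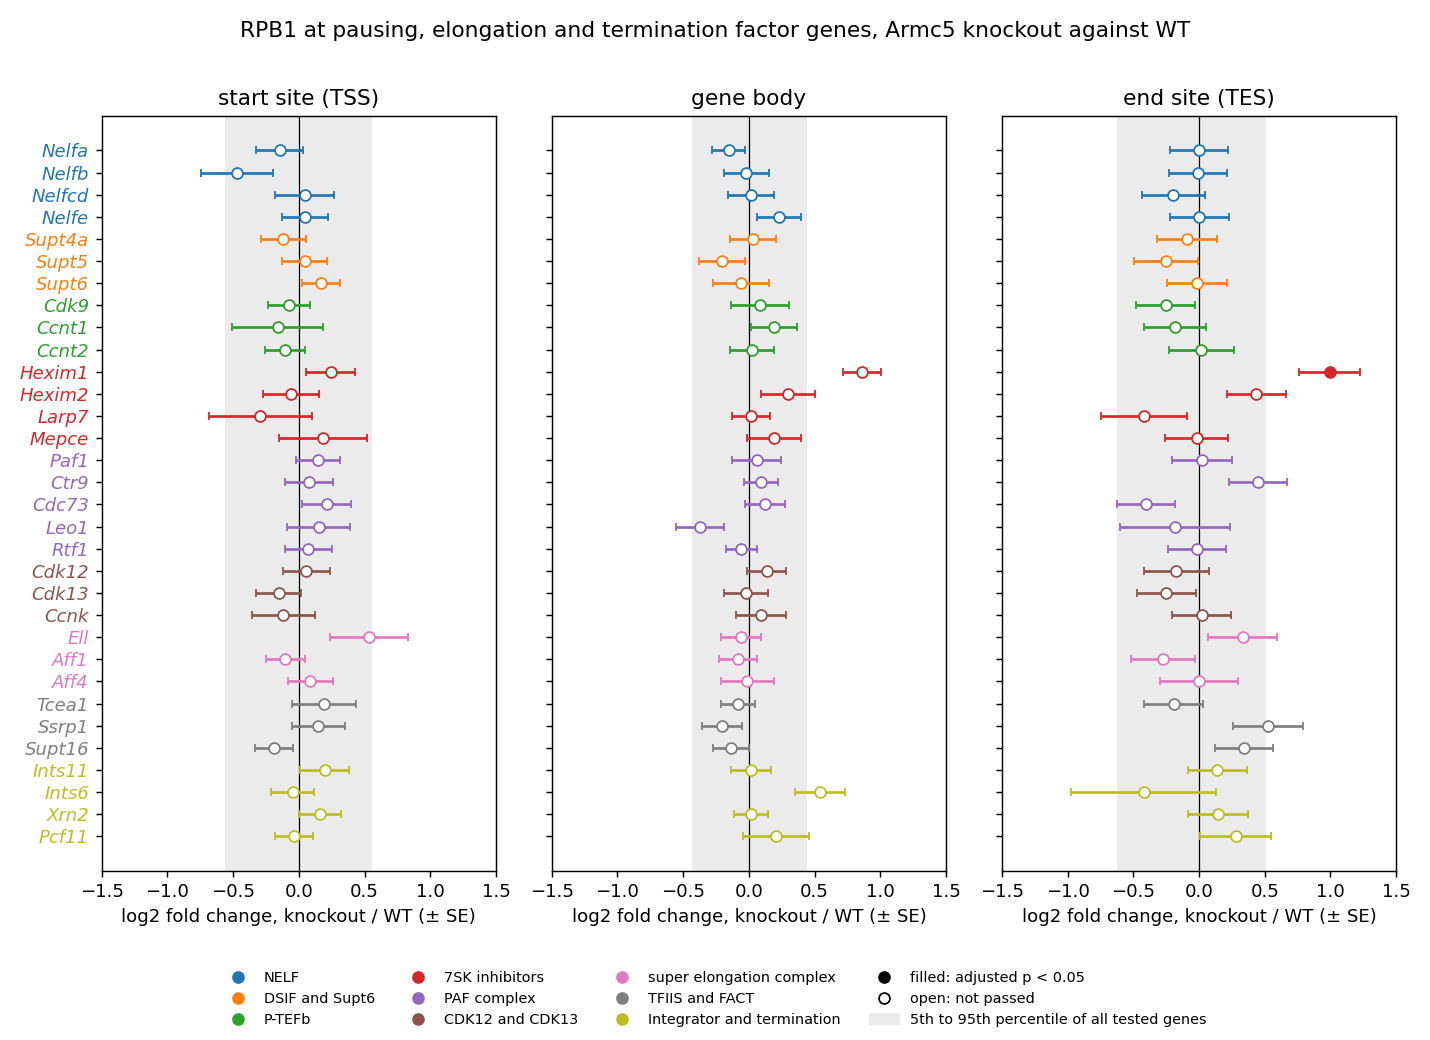
Log2 fold change of RPB1 counts, knockout over WT (x, ± SE), for the 32 member genes (y, by role) by region (TSS, gene body, TES), from 3 against 3 libraries. Filled points passed an adjusted p under 0.05 and the grey band runs from the 5th to the 95th percentile of all tested genes. The filled point is Hexim1 at the TES, at 0.99; its gene body value is 0.86, and Ints6 in the gene body (0.54) and Ssrp1 at the TES (0.53) also lie outside the band.

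Hexim1 binds 7SK RNA and P-TEFb and holds the kinase inactive. It was named for its induction by hexamethylene bisacetamide, and a rise of Hexim1 transcription after release of P-TEFb from 7SK is known from cultured human cells. In this gland, RPB1 at the TES of Hexim1 stood at 58.5, 61.8 and 73.5 CPM in WT glands against 129.5, 116 and 143 CPM in knockout glands. The lowest knockout value exceeded the highest WT value. This was a 1.99-fold higher level in knockout, with means of 64.6 ± 7.85 CPM (SD, n = 3) in WT and 129 ± 13.5 CPM (SD, n = 3) in knockout (log2 fold change 0.99 ± 0.23 (SE), adjusted p = 0.0153 by edgeR's quasi-likelihood test), and it ranked 99 of 12680 genes from the highest fold change. In the gene body Hexim1 had 44.4, 37.2 and 36.9 CPM in WT glands against 64.6, 77.4 and 73.1 CPM in knockout glands. The groups again did not overlap, and the fold was 1.81 (log2 fold change 0.86 ± 0.15 (SE), adjusted p = 0.0825), which missed the threshold. At the TSS it had 221, 198 and 292 CPM in WT glands against 248, 283 and 314 CPM in knockout glands. Here the groups overlapped, with WT replicate 3 above knockout replicates 1 and 2, with a log2 fold change 0.24 ± 0.19 (SE), adjusted p = 0.952. The TES difference thus passed the test, the gene body difference was of similar size and did not pass, and the start region showed a smaller one that did not pass. How much smaller depended on scaling. With the factors of the joined tables the log2 fold changes were 0.47 ± 0.34 (TSS), 0.75 ± 0.14 (gene body) and 0.90 ± 0.23 (TES, ± SE).

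The Hexim1 difference at the TES was present within each depth class. Among the libraries with fewer counts, WT replicates 1 and 2 had 58.5 and 61.8 CPM and knockout replicate 1 had 129.5 CPM. Among those with more counts, WT replicate 3 had 73.5 CPM and knockout replicates 2 and 3 had 116 and 143 CPM. The call passed in 13 of 17 alternative fits, with adjusted p from 0.00312 to 0.158 and a log2 fold change from 0.90 to 1.10. It was lost with the scaling factors of the joined tables (adjusted p = 0.0692), without WT replicate 1 (0.158), without knockout replicate 3 (0.072) and without the 2 smallest libraries, WT replicate 2 and knockout replicate 1 (0.083). In the gene body the adjusted p ran from 5.32e-05 to 0.484 over the 17 alternatives, and it passed with DESeq2 (5.32e-05) and with depth class as a covariate (0.0462). Capsule and fibroblast markers were lower in every knockout gland in the gene body (2 of 5 markers with rows, Pdgfra and Col1a1, none at 0, summed level 84.6 to 253 CPM in WT and 61.6 to 73.7 CPM in knockout, neither called). Endothelial markers (3 of 4 with rows, 282 to 379 CPM in WT and 256 to 302 CPM in knockout), macrophage markers (2 of 4, 20.5 to 31.8 and 19.3 to 28.0 CPM) and the adipocyte marker Fabp4 overlapped between genotypes in summed level, but the endothelial Cdh5 (60.0, 77.3 and 62.5 CPM in WT against 49.7, 44.9 and 49.9 CPM) and the macrophage Lyz2 (6.30, 8.22 and 5.79 CPM against 5.10, 5.62 and 3.75 CPM) were lower in every knockout gland. Chromaffin markers had a higher summed mean in knockout (247 ± 105 CPM in WT and 417 ± 244 CPM in knockout, SD, n = 3; median log2 fold change of the 5 markers 0.82), with overlapping groups and none called. Lymphocyte and kidney markers were not analysed here. The part of any of these cell types in the Hexim1 result was not tested.

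Hexim1 is a short gene at chr11:103116325-103119725 on the plus strand of GRCm38.p6 (3401 bp), and no other annotated gene lies within 1000 bp of it. Its paralog Hexim2 lies 3534 bp away. The RefSeq promoters below run from 250 bases before to 50 after the annotated start, 5′ to 3′ on the gene's strand. They are shown for Hexim1, the gene called at the TES, for Cdk9 and Ccnt1, which encode the kinase and cyclin that HEXIM1 inhibits and which did not pass the test in any region, and for Ints6, the other member with an unadjusted p under 0.05 in the gene body. Positions are chr11:103116075-103116374, plus strand for Hexim1, chr2:32712735-32713034, minus strand for Cdk9, chr15:98567687-98567986, minus strand for Ccnt1 and chr14:62761063-62761362, minus strand for Ints6. Capitals mark exact matches on either strand to letters that were searched for. GGGCGG is known as the GC box. CCAAT is the CCAAT box. CCGGAAG is a site of the ETS type. TATATAA, a form of the TATA box, was added to the search after the Hexim1 sequence had been seen.
Hexim1: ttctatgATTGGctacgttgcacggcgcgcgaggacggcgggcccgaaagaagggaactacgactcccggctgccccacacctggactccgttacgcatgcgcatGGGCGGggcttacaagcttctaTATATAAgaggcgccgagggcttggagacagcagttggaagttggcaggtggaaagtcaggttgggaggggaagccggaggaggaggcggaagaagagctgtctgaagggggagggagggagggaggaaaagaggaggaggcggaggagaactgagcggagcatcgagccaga
Cdk9: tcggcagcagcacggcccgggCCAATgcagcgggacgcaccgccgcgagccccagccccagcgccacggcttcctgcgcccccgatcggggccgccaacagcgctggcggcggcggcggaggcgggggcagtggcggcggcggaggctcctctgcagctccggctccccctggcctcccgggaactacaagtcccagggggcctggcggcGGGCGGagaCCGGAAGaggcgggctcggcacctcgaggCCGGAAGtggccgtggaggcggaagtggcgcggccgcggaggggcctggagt
Ccnt1: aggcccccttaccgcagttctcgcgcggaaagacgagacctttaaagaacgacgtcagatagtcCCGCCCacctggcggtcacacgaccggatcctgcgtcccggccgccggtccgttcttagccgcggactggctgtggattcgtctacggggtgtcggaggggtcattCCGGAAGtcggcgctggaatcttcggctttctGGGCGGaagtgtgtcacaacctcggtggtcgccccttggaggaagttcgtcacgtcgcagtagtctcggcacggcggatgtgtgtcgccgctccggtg
Ints6: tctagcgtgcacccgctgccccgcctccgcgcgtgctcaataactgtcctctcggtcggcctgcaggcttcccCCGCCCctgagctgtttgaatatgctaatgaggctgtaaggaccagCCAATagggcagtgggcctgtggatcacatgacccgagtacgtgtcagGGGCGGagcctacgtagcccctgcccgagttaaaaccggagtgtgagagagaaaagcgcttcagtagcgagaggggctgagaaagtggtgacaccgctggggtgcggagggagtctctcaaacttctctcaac

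In the Hexim1 promoter the CCAAT match lay 243 bases before the start on the opposite strand, the GGGCGG match 145 bases before it and the TATATAA match 123 bases before it. The 4 promoters all held GGGCGG, while CCAAT was found in Hexim1, Cdk9 and Ints6, and CCGGAAG in Cdk9 and Ccnt1. Over the 28 promoters found for 26 of the 32 members, GGGCGG was present in 24 (85.7%), compared with 63.6% of 12349 promoters of genes in the tables and 35.7% of all 32851 promoters of the same length. CCAAT was present in 9 (32.1%, against 37.7 and 37.4%), and CCGGAAG in 7 (25.0%, against 17.2 and 8.86%). TATAAA occurred only in Nelfb among the members (3.57%, against 6.87 and 13.6%), and TATATAA only in Hexim1 (3.57%, against 1.25 and 3.24%). Because TATATAA was added after the Hexim1 sequence had been seen, that match was fixed in advance and its share is not a comparison. CACGTG was present in 3 (10.7%, against 9.83 and 7.15%), TGACGTCA in 1, Larp7 (3.57%, against 3.16 and 1.79%), and ATGGCGG in 4 (14.3%, against 7.74 and 4.05%). A TATATAA followed by A contains TATAAA, and no other pair among these motifs contains one another. Promoters of Nelfcd, Nelfe, Hexim2, Mepce, Ctr9 and Tcea1 were not in the sequence table. A match is a description of letters, not of binding.

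The other genes of the 7SK complex did not pass the test in any region. The medians of the 4 inhibitor genes, Hexim1 included, were 0.064 (TSS), 0.24 (gene body) and 0.21 (TES). Hexim2, a second HEXIM protein able to inhibit P-TEFb, had a TES level of 39.0, 57.8 and 44.2 CPM in WT glands against 74.3, 56.2 and 59.0 CPM in knockout glands. The ranges overlapped through WT replicate 2 and knockout replicate 2 (log2 fold change 0.44 ± 0.23 (SE), adjusted p = 0.766), and the gene body log2 fold change was 0.30 ± 0.20. Larp7, which protects the end of 7SK RNA, had a log2 fold change of 0.015 ± 0.14 (gene body) and -0.42 ± 0.33 (TES). The log2 fold change of Mepce was 0.19 ± 0.20 (gene body) and -0.017 ± 0.24 (TES).

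P-TEFb itself showed no passing difference. The median log2 fold changes of Cdk9, Ccnt1 and Ccnt2 were -0.11 (TSS), 0.083 (gene body) and -0.18 (TES). At the TES of Cdk9, the kinase gene, RPB1 stood at 72.7, 62.7 and 97.5 CPM in WT glands against 69.0, 60.3 and 68.8 CPM in knockout glands. Knockout replicates 1 and 3 lay inside the WT range and replicate 2 just below it (log2 fold change -0.25 ± 0.22 (SE), adjusted p = 0.959). The gene body of Ccnt1 carried 166, 117 and 164 CPM in WT glands against 162, 193 and 156 CPM in knockout glands. Only knockout replicate 2 lay above the WT range (log2 fold change 0.19 ± 0.18 (SE), adjusted p = 0.934). The TSS of Ccnt2, the cyclin T2 gene, carried 134, 118 and 151 CPM in WT glands against 126, 119.9 and 131 CPM in knockout glands. All 3 knockout values fell within the WT range (log2 fold change -0.11 ± 0.15 (SE), adjusted p = 0.982, with the sign turned to 0.13 under the scaling of the joined tables). The promoters of Cdk9 and Ccnt1 printed above therefore belong to genes that did not pass the test, beside that of Hexim1, which did at the TES.

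**Figure D3:**
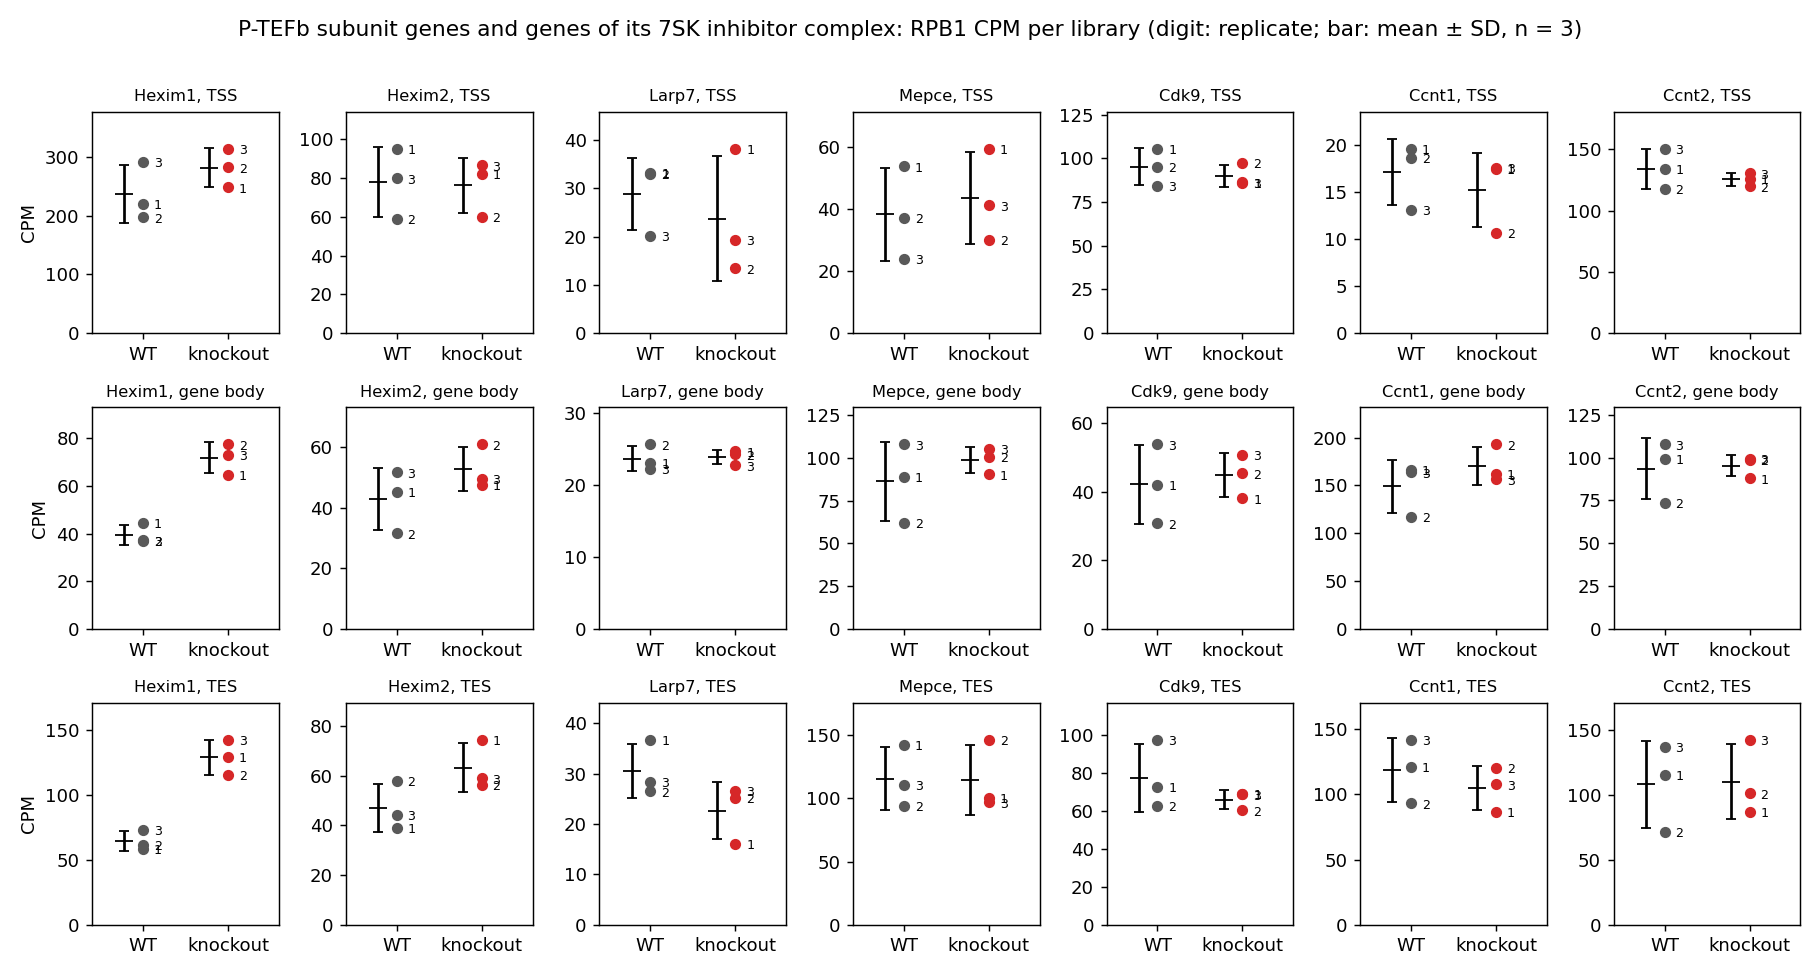
RPB1 level (y, CPM, linear axis from 0) in each of 3 WT and 3 knockout libraries (points, digit giving the replicate; bar, mean ± SD) for the 4 genes of the 7SK inhibitor complex and the 3 P-TEFb genes, by region (rows). Hexim1 is separate between genotypes at the TES and over the gene body (36.9 to 44.4 against 64.6 to 77.4 CPM), and every other panel overlaps.

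The pausing factors did not pass the test in any region. NELF, which binds paused Pol II and its RNA, had medians of -0.049 (TSS), -0.0018 (gene body) and -0.0042 (TES). At the TSS of Nelfb, a NELF subunit gene, RPB1 stood at 75.1, 71.4 and 39.7 CPM in WT glands against 53.5, 34.8 and 45.0 CPM in knockout glands. The groups overlapped because WT replicate 3 lay below knockout replicates 1 and 3, and the fold change did not pass (log2 fold change -0.47 ± 0.27 (SE), adjusted p = 0.952). With each library left out in turn it ran from -0.74 without WT replicate 3 to -0.30 without WT replicate 1. It was -0.22 with depth class as a covariate and -0.19 under the scaling of the joined tables. In the gene body of Nelfe, the RNA-binding subunit, levels were 17.0, 15.8 and 18.7 CPM in WT glands against 18.5, 23.0 and 18.8 CPM in knockout glands. WT replicate 3 lay above knockout replicate 1 (log2 fold change 0.23 ± 0.17 (SE), adjusted p = 0.934), and the neighbours Cfb and Skiv2l lie 1 and 186 bp from this gene, so windows may share reads. The TES of Nelfcd carried 77.5, 55.9 and 45.5 CPM in WT glands against 55.2, 63.5 and 37.4 CPM in knockout glands. The ranges overlapped (log2 fold change -0.19 ± 0.24 (SE), adjusted p = 0.972), and the sign turned to 0.048 without WT replicate 1 and 0.0033 without knockout replicate 3. Nelfa had 61.6, 57.8 and 63.5 CPM in WT glands against 50.7, 56.3 and 57.3 CPM in knockout glands in the gene body. Its knockout values all lay below WT by a small margin (log2 fold change -0.15 ± 0.13 (SE), adjusted p = 0.934).

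DSIF and SPT6 genes did not pass the test in any region. Supt5 encodes the large DSIF subunit, a substrate of CDK9, and Supt4a its small partner, while Supt6 encodes a histone chaperone that travels with Pol II. Their medians were 0.044 (TSS), -0.062 (gene body) and -0.089 (TES). The gene body of Supt5 carried 128, 85.2 and 116 CPM in WT glands against 87.5, 100.2 and 98.4 CPM in knockout glands. The knockout values fell inside the WT range (log2 fold change -0.20 ± 0.17 (SE), adjusted p = 0.934). At its TES the levels were 156, 88.2 and 125 CPM in WT glands against 88.9, 95.1 and 127 CPM in knockout glands. Again the groups overlapped throughout (log2 fold change -0.25 ± 0.24 (SE), adjusted p = 0.959). The TSS of Supt6 carried 121, 111 and 116 CPM in WT glands against 127, 121 and 144 CPM in knockout glands. Knockout replicate 2 fell within the WT range and replicates 1 and 3 above it (log2 fold change 0.17 ± 0.15 (SE), adjusted p = 0.952).

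PAF complex genes did not pass the test in any region. The complex rides with elongating Pol II and supports histone modification, and its 5 genes had medians of 0.15 (TSS), 0.058 (gene body) and -0.015 (TES). At the TES of Ctr9, its scaffold subunit, RPB1 stood at 62.1, 72.6 and 57.3 CPM in WT glands against 90.4, 79.5 and 90.0 CPM in knockout glands. All knockout values were above all WT values, but the difference did not pass (log2 fold change 0.45 ± 0.22 (SE), adjusted p = 0.728). At the TES of Cdc73, which encodes parafibromin, levels were 54.4, 54.9 and 59.0 CPM in WT glands against 40.6, 42.5 and 44.3 CPM in knockout glands. Here all knockout values were below all WT values (log2 fold change -0.40 ± 0.22 (SE), adjusted p = 0.808), and B3galt2 lies nested inside Cdc73. At the TSS of Cdc73 the levels were 93.6, 81.7 and 63.7 CPM in WT glands against 101, 82.4 and 92.6 CPM in knockout glands. The groups overlapped (log2 fold change 0.21 ± 0.18 (SE), adjusted p = 0.952). Leo1 had gene body levels of 24.3, 31.0 and 22.4 CPM in WT glands against 21.9, 17.6 and 20.5 CPM in knockout glands. All knockout values lay below WT, with knockout replicate 1 close to WT replicate 3 (log2 fold change -0.37 ± 0.18 (SE), adjusted p = 0.934). Paf1 and Rtf1, the latter needed for histone ubiquitylation, had log2 fold changes from -0.057 to 0.15 over the 3 regions. At the TES the groups were separate for Ctr9 and Cdc73, in opposite directions, and overlapped for Paf1, Leo1 and Rtf1.

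CDK12, CDK13 and their cyclin K phosphorylate the RPB1 tail during elongation, and CDK12 is known for its part in full-length transcription of DNA repair genes. Their medians were -0.12 (TSS), 0.094 (gene body) and -0.17 (TES). The TSS of Cdk13 carried 285, 217 and 204 CPM in WT glands against 217, 226 and 192 CPM in knockout glands. WT replicate 1 was the highest library and knockout replicate 3 the lowest (log2 fold change -0.15 ± 0.17 (SE), adjusted p = 0.971, with the sign turned to 0.12 under joined scaling). Its TES carried 91.1, 71.6 and 101 CPM in WT glands against 82.0, 60.8 and 82.1 CPM in knockout glands. The groups overlapped (log2 fold change -0.25 ± 0.23 (SE), adjusted p = 0.959). The gene body of Cdk12 carried 199, 153 and 201 CPM in WT glands against 197, 205 and 205 CPM in knockout glands. WT replicate 2, the library with the fewest counts, was low and the other 5 lay close together (log2 fold change 0.14 ± 0.15 (SE), adjusted p = 0.935).

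The super elongation complex joins P-TEFb with ELL factors on AFF scaffolds. Of its 5 listed genes 3 were measured, with medians of 0.088 (TSS), -0.060 (gene body) and 0.00094 (TES). Ell, which suppresses transient stalling, had TSS levels of 56.6, 55.8 and 29.8 CPM in WT glands against 74.3, 45.5 and 82.7 CPM in knockout glands. WT replicates 1 and 2 exceeded knockout replicate 2, so the groups overlapped, and the fold change did not pass (log2 fold change 0.53 ± 0.30 (SE), adjusted p = 0.952). It was 0.25 without WT replicate 3 and 0.35 without knockout replicate 3. At the TES of Ell the levels were 257, 239 and 242 CPM in WT glands against 336, 362 and 232 CPM in knockout glands. Knockout replicate 3 lay below all WT libraries and the other two above them (log2 fold change 0.33 ± 0.26 (SE), adjusted p = 0.951). The gene body of the scaffold gene Aff1 carried 398, 358 and 428 CPM in WT glands against 356, 403 and 361 CPM in knockout glands. The groups overlapped (log2 fold change -0.081 ± 0.14 (SE), adjusted p = 0.955). Aff4, the other scaffold gene, had log2 fold changes between -0.011 and 0.088 over the 3 regions.

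FACT and TFIIS genes did not pass the test in any region. Ssrp1 and Supt16 encode the FACT histone chaperone, and Tcea1 encodes TFIIS, which rescues backtracked Pol II. The 3 genes had medians of 0.15 (TSS), -0.14 (gene body) and 0.34 (TES). At the TES of Ssrp1, RPB1 stood at 245, 173 and 302 CPM in WT glands against 352, 363 and 326 CPM in knockout glands. All knockout values were above all WT values (log2 fold change 0.53 ± 0.27 (SE), adjusted p = 0.743), and the fold change was 0.34 without WT replicate 2. The gene body of Ssrp1 had 20.0, 22.9 and 23.8 CPM in WT glands against 19.9, 19.4 and 18.6 CPM in knockout glands. All knockout values were below all WT values there, by a small margin (log2 fold change -0.21 ± 0.15 (SE), adjusted p = 0.934). P2rx3 lies 11 bp and Tnks1bp1 898 bp from Ssrp1, so its TES window may hold reads of a neighbour. The TSS of Supt16 carried 133, 129 and 121 CPM in WT glands against 119.9, 108 and 109.8 CPM in knockout glands. It was the only member with separate groups at the TSS, and it was lower in knockout (log2 fold change -0.19 ± 0.14 (SE), adjusted p = 0.952, with the sign turned to 0.069 under joined scaling). The TES log2 fold change was 0.34 ± 0.22 for Supt16, which Rpgrip1 overlaps, and, for Tcea1, -0.19 ± 0.23.

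Among Integrator and termination genes, Ints6 stood apart in the gene body without passing the test. Integrator cleaves and attenuates nascent transcripts, INTS11 being its endonuclease and INTS6 a subunit that brings in a phosphatase. PCF11 binds the RPB1 tail at the end of genes, and XRN2 degrades the RNA left behind after cleavage. The 4 genes had medians of 0.061 (TSS), 0.11 (gene body) and 0.14 (TES). The gene body of Ints6 had 249.6, 186 and 157 CPM in WT glands against 284, 311 and 269 CPM in knockout glands. All knockout values were above all WT values, and the means were 198 ± 47.3 CPM (SD, n = 3) in WT and 288 ± 21.4 CPM (SD, n = 3) in knockout (log2 fold change 0.54 ± 0.19 (SE), adjusted p = 0.734). Serpine3, 4931440J10Rik and Gm50593 overlap Ints6, so reads over its span may belong to them. At its TES, Ints6 had few reads, 17.1, 34.3 and 8.75 CPM in WT glands against 22.2, 8.68 and 13.3 CPM in knockout glands, and no difference was detectable there (log2 fold change -0.42 ± 0.55). The TSS of Ints11 carried 101, 104 and 155 CPM in WT glands against 128, 143 and 147 CPM in knockout glands. The knockout values lay within the WT range (log2 fold change 0.20 ± 0.19 (SE), adjusted p = 0.952). The TES of Pcf11 carried 226, 134 and 297 CPM in WT glands against 241, 301 and 259.7 CPM in knockout glands. WT replicate 2 was low, and knockout replicate 2 was the highest (log2 fold change 0.28 ± 0.27 (SE), adjusted p = 0.96). This fold change rested on single libraries, at 0.024 without WT replicate 2 and 0.56 without WT replicate 3. The log2 fold changes of Xrn2 were 0.16 ± 0.16 (TSS), 0.015 ± 0.13 (gene body) and 0.14 ± 0.23 (TES).

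**Figure D4:**
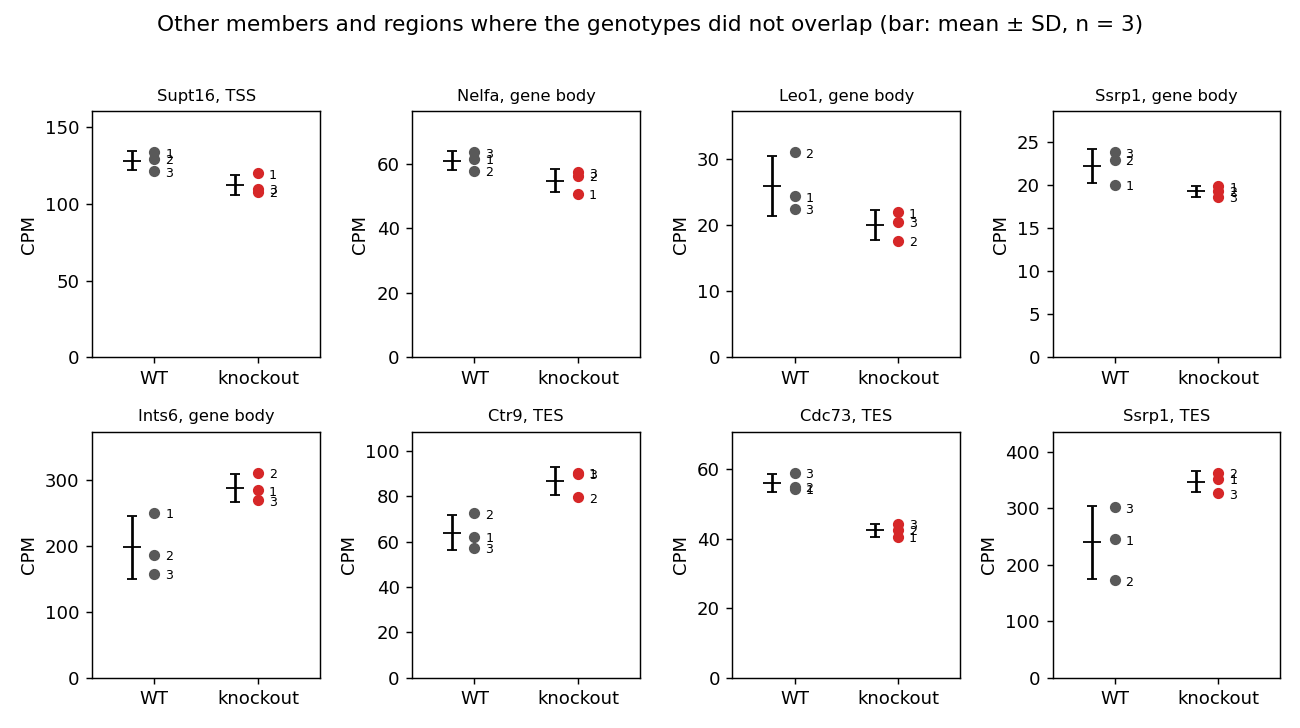
RPB1 level (y, CPM, linear axis from 0) in 3 WT and 3 knockout libraries (points; bar, mean ± SD) for the members other than Hexim1 whose genotypes did not overlap in a region. Supt16 at the TSS, Cdc73 at the TES, and Nelfa, Leo1 and Ssrp1 in the gene body were lower in knockout, and Ints6 in the gene body and Ctr9 and Ssrp1 at the TES were higher, with none past the threshold.

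Counted over all members, the genotypes did not overlap for 1 gene at the TSS (3.12%, against 11.4% of all genes tested), for 5 over the gene body (15.6%, against 10.4%) and for 4 at the TES (12.5%, against 11.5%). The TES share was close to the background, the gene body share above it and the TSS share below it, on counts of 1 to 5 genes. Other than Hexim1, the smallest adjusted p was 0.952 (TSS), 0.734 (gene body) and 0.728 (TES).

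Whether RPB1 was redistributed along the members was asked with the ratio of TSS or TES to gene body CPM in the same library. For the TSS ratio 0 of 32 members passed, and 0% of all genes did; edgeR gave 2 members with unadjusted p under 0.05 (6.25%, against 3.64% of all genes), and limma on the log2 ratio called 0 genes. The 2 members were Hexim1 and Ints6, named because of these values. The TSS ratio of Hexim1 was 4.96, 5.31 and 7.91 in WT glands against 3.84, 3.65 and 4.30 in knockout glands. Every knockout ratio was below every WT ratio (log2 difference -0.60 ± 0.22 (SE), adjusted p = 0.955), but the difference shrank to -0.23 ± 0.38 with gene body scaling for both regions and to -0.38 without WT replicate 3. The separation also depended on scaling each region within itself. Unscaled TSS counts over gene body counts per kb were 1.71, 1.47 and 3.80 in WT glands against 1.56, 1.96 and 1.97 in knockout glands, which overlap. The TSS ratio of Ints6 was 1.37, 1.51 and 2.14 in WT glands against 1.17, 0.881 and 1.22 in knockout glands. It too was lower in every knockout library (log2 difference -0.61 ± 0.25 (SE), adjusted p = 0.955), and with gene body scaling for both regions the difference was -0.23 ± 0.39. Unscaled per kb, Ints6 had 11.8, 10.4 and 25.7 in WT glands against 11.8, 11.8 and 13.9 in knockout glands, which overlap as well. Supt5 ratios went the other way, 1.10, 1.21 and 1.24 in WT glands against 1.39, 1.46 and 1.37 in knockout glands (log2 difference 0.25 ± 0.17 (SE), adjusted p = 0.955). These 3 were the members with separate groups after scaling (9.38%, against 9.43% of all genes), and the median log2 difference was -0.013, against -0.016 over all genes. Scaling each region within itself holds the median over all genes near 0, so a shift shared by most genes could not be seen this way. Under the scaling of the joined tables the median log2 fold change over all genes was 0.24 (TSS) and -0.12 (gene body). The ratios of Hexim1 and Ints6 use the same gene body counts as above and are not separate evidence.

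For the TES ratio 0 of 32 members passed, beside 0.0158% of all genes, and 3 had unadjusted p under 0.05 (9.38%, against 5.7%), named because of these values: Ssrp1, Supt16 and Cdc73. The groups did not overlap for 5 members (15.6%, against 12.2% of all genes), these 3 with Ctr9 and Ccnt1. The TES ratio of Ssrp1 was 12.2, 7.53 and 12.7 in WT glands against 17.7, 18.7 and 17.5 in knockout glands. All knockout ratios were above all WT ratios (log2 difference 0.75 ± 0.22 (SE), adjusted p = 0.663). Supt16, the other FACT gene, had 0.759, 0.809 and 0.836 in WT glands against 1.02, 1.23 and 1.14 in knockout glands. Its knockout ratios were also all higher (log2 difference 0.50 ± 0.20 (SE), adjusted p = 0.839). Rpgrip1 overlaps Supt16 and Chd8 lies 911 bp from it, while P2rx3 lies 11 bp from Ssrp1. The counts of both FACT genes may therefore hold reads of neighbours. The TES ratio of Cdc73 was 0.249, 0.337 and 0.296 in WT glands against 0.201, 0.186 and 0.218 in knockout glands. All knockout ratios were lower (log2 difference -0.53 ± 0.21 (SE), adjusted p = 0.839). Ctr9 ratios were higher (log2 difference 0.35 ± 0.19 (SE), adjusted p = 0.839) and Ccnt1 ratios lower (log2 difference -0.37 ± 0.19 (SE), adjusted p = 0.839) in every knockout library. For Hexim1, whose gene body and TES groups were both separate, the TES ratio did not pass (log2 difference 0.13 ± 0.21 (SE), adjusted p = 0.951), and the sign turned to -0.037 without WT replicate 1.

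The wider pathway was read from a list of 72 other pausing, elongation, cleavage and termination genes, of which 63 had rows. In each region 0 of the 63 passed the test in either direction, and the median log2 fold changes were 0.0049 (TSS), -0.0040 (gene body) and -0.014 (TES). Over all genes tested 0.339% (TSS), 0.252% (gene body) and 0.915% (TES) passed. With unadjusted p under 0.05 edgeR gave 1 gene at the TSS, 2 at the TES and 0 over the gene body. Over all genes that rule gave 5.57% (TSS), 6.85% (TES) and 5.05% (gene body), so the list did not exceed the background in any region. The TSS gene was Cstf3, of the cleavage stimulation factor (log2 fold change 0.53, adjusted p = 0.444). Those at the TES were Rprd1b, which binds the RPB1 tail (log2 fold change -0.55, adjusted p = 0.629), and Ppp1r10, which encodes a nuclear targeting subunit of a protein phosphatase that acts in termination. The TES of Ppp1r10 carried 106, 103 and 110.2 CPM in WT glands against 199, 180.1 and 164 CPM in knockout glands. All knockout values were higher (log2 fold change 0.76 ± 0.24 (SE), adjusted p = 0.164), and DESeq2 called this gene.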

How the data were processed

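RPB1 ChIP-seq counts of 6 adrenal libraries were analysed, 3 WT and 3 Armc5(-/-). The authors deposited whole-number read counts per gene and library for 3 regions, not normalized. Per the submitters' processing notes, the builds were GRCm38 and mm10 and the tools BWA, MACS2, HOMER, Picard, Trimmomatic, limma, edgeR and bcl2fastq 2.20, with no roles given. Not given in the sources used here are the counting tool, window widths, read filters and use of input, so neighbouring genes may share reads. Another annotated gene overlapped or lay within 1000 bp of 24 of the 32 members, and a protein-coding one for 15. Only some of these are named above. Each table was fitted whole with edgeR 4.0.16 in R 4.3.3 (TMM, filterByExpr with a minimum count of 10 and total of 15, quasi-likelihood F test, Benjamini-Hochberg adjustment over all genes), and all 32 members passed the filter in each region. A change was called at adjusted p under 0.05. SE is the log2 fold change over the square root of F. Ratios were tested as a region by genotype interaction with library as a block. The procedure was run on simulated counts with known changes and a fixed dispersion, which does not give its power on these libraries. Symbols matched RefSeq GRCm38.p6 for 12384 of 12718 genes, and all 32 members. The members and lists were chosen with earlier results of these data known. Values per library are given for each member called in any region or ratio, and for the member of each role with the smallest unadjusted p in each region; others, such as Hexim2, Nelfa, Cdc73 at the TES and the ratio genes, were added after their values were seen. Alternatives used DESeq2 1.42.0 and limma 3.58.1. The replicate numbers were not taken as pairs. Libraries of a genotype are separate mice by their numbers.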

Additional observations from a re-analysis of the deposited data

How the results depend on the processing

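Over 17 alternative fits per region and 13 per ratio, 0 members were called at the TSS and in either ratio. In the gene body 1 member, Hexim1, was called with DESeq2 and 1, again Hexim1, with depth class as a covariate, and 0 otherwise. Those 2 fits called 179 and 95 of all genes. At the TES the count was 0 with the scaling of the joined tables, 0 without the 2 smallest libraries (chosen after seeing the data), and 0 to 1 when each library was left out in turn (0 without WT replicate 1 or knockout replicate 3). The TSS member median of 0.046 became 0.15 with table totals, 0.30 with joined scaling, -0.020 with depth class and -0.027 without the 2 smallest libraries, and ran from -0.062 to 0.046 with each library left out. DESeq2 called 1 of the other pathway genes at the TES, Ppp1r10. Signs turned under joined scaling at the TSS for Ccnt2 (0.13), Cdk13 (0.12) and Supt16 (0.069). They also turned for Nelfcd at the TES without WT replicate 1 (0.048) or knockout replicate 3 (0.0033), in a range of -0.38 to 0.048 with each library left out, and in the TES ratio of Hexim1 without WT replicate 1 (-0.037). The cause was not tested. Calls over all genes ranged from 5 to 158 at the TSS (43 reported), 0 to 179 in the gene body (32), 61 to 194 at the TES (116), 0 to 27 for the TSS ratio (0) and 0 to 15 for the TES ratio (2), so a threshold miss here depends on the fit as well as on the gene.

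Same-numbered libraries showed no consistent pairing (TSS correlations 0.443, -0.215 and 0.361; gene body 0.0734, -0.594 and 0.277; TES 0.0307, -0.31 and 0.212). A sample correlated best with its own number for 1, 0 and 1 of 3 numbers. With the replicate block the members called were 0, 0 and 1, the gene at the TES again being Hexim1 (log2 fold change 1.00, adjusted p = 0.00312), and all genes called were 100, 0 and 194.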
